A study of Homo sapiens with 20 samples.

Results

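Collagen chain genes encode the polypeptides that wind together as triple helices. The 41 genes were taken by name. A peak was given to a gene when its centre lay between 10 kb upstream of the start and 10 kb past the end of the gene, in the GENCODE release 44 records lifted to GRCh37. Of the 41 genes, 28 had at least 1 HIF1A peak in the 8 peak lists, 25 had a peak in hypoxia and 14 in normoxia. Of all protein-coding genes, 54.8%, 51.8% and 13.1% had one. At the share of other coding genes of similar length, 28.7, 27.3 and 8.92 of the 41 would have one. These windows held 95 of the 26484 peaks in all lists, 77 from hypoxia and 18 from normoxia, and 2 of the 95 lay in the windows of 2 collagen genes.

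Fibrillar collagens form the tensile fibrils of skin, bone and tendon, type IV chains form the network of basement membranes, and the remaining classes link, coat or anchor these structures or span the cell membrane. Newly made chains are hydroxylated on proline and lysine in the endoplasmic reticulum by enzymes that need oxygen. HIF1A is degraded while oxygen is plentiful and builds up in hypoxia, when it joins its partner ARNT and binds DNA at a short core sequence, ACGTG or GCGTG.

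Genomic HIF1A occupancy came from ChIP-seq, in which DNA bound by the protein is pulled down with an antibody and sequenced, in wild-type cells of 4 cancer lines. HCT116 and RKO came from colorectal and colon carcinomas, and A549 and H460 from lung carcinomas. Each line was kept in normoxia or in hypoxia at 1% O2 for 24 h. Each of these 8 groups had 2 ChIP libraries, and each line had 1 input library of genomic DNA, labelled as normoxia, that served both conditions. Replicates were merged before peaks were called, so no value below has a replicate error, and each line is a single established cell line. Epithelial carcinoma lines are not the fibroblasts and cartilage or bone cells that make most fibrillar collagen, and RNA was not analysed here.

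The merged lists rested on 41.2 M to 81.5 M tags (1 M is 1000000) and held 526 to 5408 peaks in A549, 1127 to 3877 in H460, 287 to 3996 in HCT116 and 2092 to 9171 in RKO, with the lower number from normoxia. The normalized tag count gives the tags of a peak per 10 M tags of its library. It is scaled to depth and not to the efficiency of the pull-down, so levels of different lines are not strictly comparable. Collagen gene peaks held 13 to 541 tags each. Of the 77 hypoxia peaks, 30 had no input tag under them, so their fold over input rests on few tags. The fold over input required of a peak was 13 in A549, 14 in H460, 7 in HCT116 and 6 in RKO, so counts of peaks cannot be set side by side between lines as if called alike.

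The sequences under 7 collagen gene peaks that held the core sequence are shown, to mark where it lay. These 7 are not the highest peaks. H460 peaks of 14.2 in the COL4A2 window and 13.1 in the COL8A2 window are not shown, and the latter had no core sequence within 100 bp of its centre. The sequences are the plus strand of the GRCh37 reference over the whole peak, with ACGTG or GCGTG, read on either strand, in capitals. The COL5A3 peak is chr19:10110959-10111105 in H460 and the COL28A1 peak is chr7:7464149-7464289 in A549. The peak in the COL7A1 window is chr3:48594646-48594792 in H460, and that in the COL23A1 window is chr5:177659358-177659504 in H460. The COL5A1 peak is chr9:137533324-137533464 in A549, the COL1A1 peak chr17:48255882-48256022 in A549 and the COL27A1 peak chr9:117041213-117041353 in A549. A match is a description of the letters and not a measured binding site.
COL5A3: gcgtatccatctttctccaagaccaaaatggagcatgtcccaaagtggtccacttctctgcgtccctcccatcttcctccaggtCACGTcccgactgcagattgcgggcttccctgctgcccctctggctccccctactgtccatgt
COL28A1: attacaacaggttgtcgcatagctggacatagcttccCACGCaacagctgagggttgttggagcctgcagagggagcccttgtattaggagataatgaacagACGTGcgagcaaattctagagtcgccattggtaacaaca
COL7A1: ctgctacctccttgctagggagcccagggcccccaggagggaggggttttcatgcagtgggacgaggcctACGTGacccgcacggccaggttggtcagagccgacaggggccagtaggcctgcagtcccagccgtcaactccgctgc
COL23A1: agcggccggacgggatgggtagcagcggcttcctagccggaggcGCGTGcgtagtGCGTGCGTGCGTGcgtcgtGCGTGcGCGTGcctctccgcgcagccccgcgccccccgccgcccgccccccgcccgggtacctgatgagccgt
COL5A1: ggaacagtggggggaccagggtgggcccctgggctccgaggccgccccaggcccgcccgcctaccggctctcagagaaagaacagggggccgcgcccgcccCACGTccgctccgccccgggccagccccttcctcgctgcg
COL1A1: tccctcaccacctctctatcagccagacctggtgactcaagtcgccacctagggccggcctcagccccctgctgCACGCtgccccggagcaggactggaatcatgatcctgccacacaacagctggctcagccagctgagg
COL27A1: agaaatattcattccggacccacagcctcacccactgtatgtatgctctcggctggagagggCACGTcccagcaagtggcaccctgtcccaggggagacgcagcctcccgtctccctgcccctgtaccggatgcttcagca
The core sequence occurred 6 times in the COL23A1 peak, with overlaps, and 2 times in the COL28A1 peak, and in each of the other 5 peaks it occurred once. Its distance from the peak centre was 1 bp in the COL7A1 window and 33 bp at COL5A1.

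The number of collagen chain genes with a peak was higher in hypoxia than in normoxia in 4 of 4 lines. In A549 it went from 1 of 41 in normoxia to 14 in hypoxia, in H460 from 3 to 11, in HCT116 from 1 to 13, and in RKO from 9 to 14. The mean share was 8.54% ± 9.23 (SD, n = 4 lines) in normoxia and 31.7% ± 3.45 (SD, n = 4 lines) in hypoxia. The difference of 23.2 percentage points gave p = 0.125 in a two-sided exact permutation test over the 4 lines. That is the smallest p that 4 lines can give. Each hypoxia list was longer than the normoxia list of its line, so this p cannot set collagen genes apart from other genes. RKO had the most collagen genes in normoxia and the smallest step between conditions, and without RKO the normoxia mean was 4.07%. The share of all protein-coding genes with a peak was also higher in hypoxia in each line. It went from 2.76% to 21.5% in A549 and from 3.81% to 18.4% in H460. In HCT116 it went from 1.29% to 19.9%, and in RKO from 6.93% to 28.3%.

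In hypoxia the share of collagen chain genes with a peak was above that of all 20162 protein-coding genes in each line. Against genes of the same length the result depended on the fold over input required of a peak. Collagen genes are long, with a median of 150 kb against 27.2 kb for all coding genes, and 37 of the 41 exceeded the latter. The share in A549 hypoxia was 34.1% (95% Wilson interval 21.6 to 49.5) against a background of 21.5% of all coding genes. H460 had 26.8% (15.7 to 41.9) against 18.4%, HCT116 had 31.7% (19.6 to 47.0) against 19.9%, and RKO had 34.1% (21.6 to 49.5) against 28.3%. These intervals cover counting error only. To allow for length, the other coding genes were sorted into 20 bins of window length and their share was averaged over the bins the collagen genes fell in. The standardised shares were 30.2% in A549, 23.0% in H460, 24.3% in HCT116 and 41.8% in RKO, and all 4 lay inside the intervals of the collagen genes. RKO was the line in which the collagen genes were below the standardised share, with 14 genes against 17.1.

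The required fold over input differed between the lists, and counting only peaks of at least 14 changed this result in the colorectal and colon lines. RKO then had 13 collagen genes in hypoxia, 31.7% (19.6 to 47.0), against a background of 11.6% of all coding genes and a standardised share of 18.8%, so its collagen share turned from below to above. HCT116 had 9 genes, 22.0% (12.0 to 36.7), against a background of 9.18% and a standardised share of 10.9%. In both lines the standardised share lay under the collagen interval, and it did so without COL14A1 and COL22A1 too, at 17.2% against 30.8% (18.6 to 46.4) in RKO and 10.7% against 20.5% (10.8 to 35.5) in HCT116. The lung lines changed little, with 29.3% (17.6 to 44.5) in A549 against a background of 19.5% and a standardised share of 27.1%, and with no change in H460, whose list already required this fold and whose background stayed at 18.4%. No input tag was found under 13 of the 17 collagen peaks counted in RKO and 8 of the 11 in HCT116, and under 77.6% and 67.1% of all peaks of that fold in these lists. Their median normalized tag counts were 3.29 and 2.82. At a local fold of at least 6 the collagen share in RKO was 17.1% against a standardised share of 16.6%, and at a normalized tag count of at least 5 it was 7.32% against 5.54%.

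**Figure D1:**
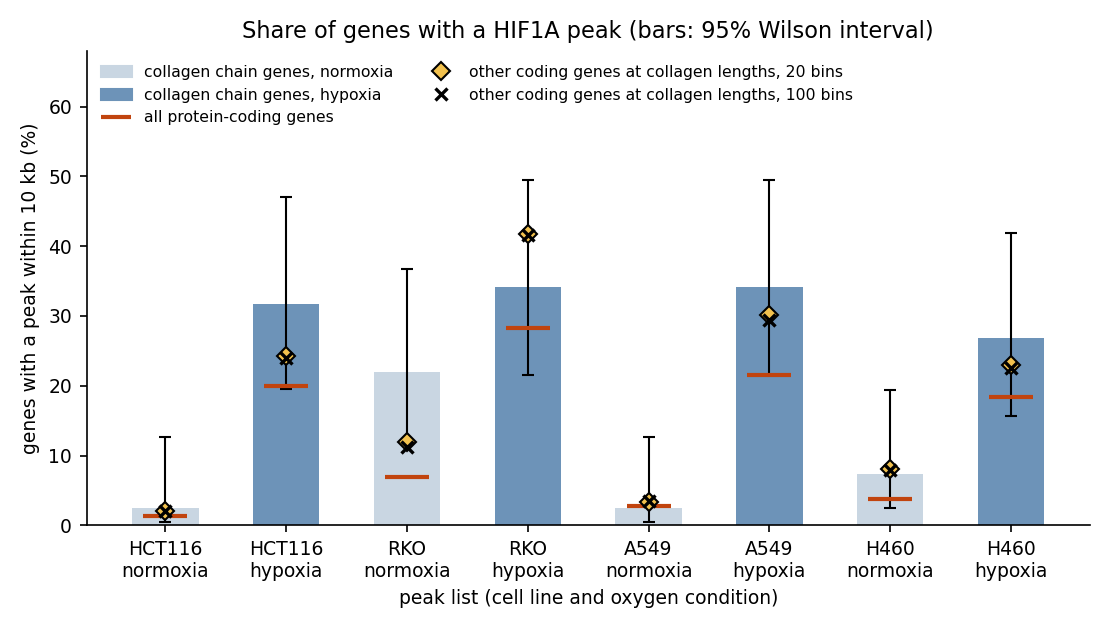
Percent of genes with a HIF1A peak within 10 kb (vertical axis) in each of the 8 peak lists; bars are the 41 collagen chain genes with 95% Wilson intervals, orange lines are all protein-coding genes, and diamonds and crosses are the other coding genes standardised to collagen gene lengths in 20 or 100 bins. With all deposited peaks, as drawn here, the diamonds of the 4 hypoxia lists, from 23.0% to 41.8%, lie inside the collagen intervals.

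The longest of the 20 bins has no upper end. It held 8 collagen genes whose windows averaged 380 kb, while the other genes in it averaged 531 kb. With 100 bins, an alternative added after seeing the data, the hypoxia values were 29.4%, 22.6%, 24.0% and 41.6% in A549, H460, HCT116 and RKO. Peaks per Mb of window gave a similar picture, with collagen windows at 1.10, 0.841, 1.07 and 1.05 times the density of all coding windows in the same order.

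In normoxia the background share of all coding genes was 2.76% in A549, 3.81% in H460, 1.29% in HCT116 and 6.93% in RKO. The collagen share was 2.44% (0.432 to 12.6) in both A549 and HCT116, 7.32% (2.52 to 19.4) in H460 and 22.0% (12.0 to 36.7) in RKO. RKO was the line whose standardised share, 11.9% with 20 bins and 11.2% with 100, lay just under the collagen interval. Of the 13 RKO normoxia peaks, 6 lay in COL14A1 and COL22A1, both on chromosome 8. Without these 2 genes, which both had a peak, the share was 17.9% (8.98 to 32.7) against a standardised share of 9.93%. The ratio of the collagen to the standardised share was 1.84 with them and 1.81 without.

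Taking any hypoxia list, 25 of 41 collagen genes (61.0%, 45.7 to 74.3) had a peak against a background of 51.8%, and 27.3 genes would carry a peak at the standardised share. In any normoxia list the collagen share was 34.1% (21.6 to 49.5) against a background of 13.1%, and 8.92 genes at the standardised share compared with the 14 seen. In any list it was 68.3% (53.0 to 80.4) against 54.8%, with 28.7 genes at the standardised share. The 13 genes with no peak in any list were COL2A1, COL3A1, COL4A1, COL6A1, COL6A2, COL9A1, COL9A2, COL9A3, COL10A1, COL11A1, COL11A2, COL12A1 and COL17A1. They were shorter, with a median length of 38.4 kb against 171 kb for the 28 with a peak, although COL11A1 without a peak was 232 kb and COL1A1 with peaks was 17.5 kb. A list holds only peaks past its thresholds, so weaker binding at these genes was not detectable here.

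**Figure D2:**
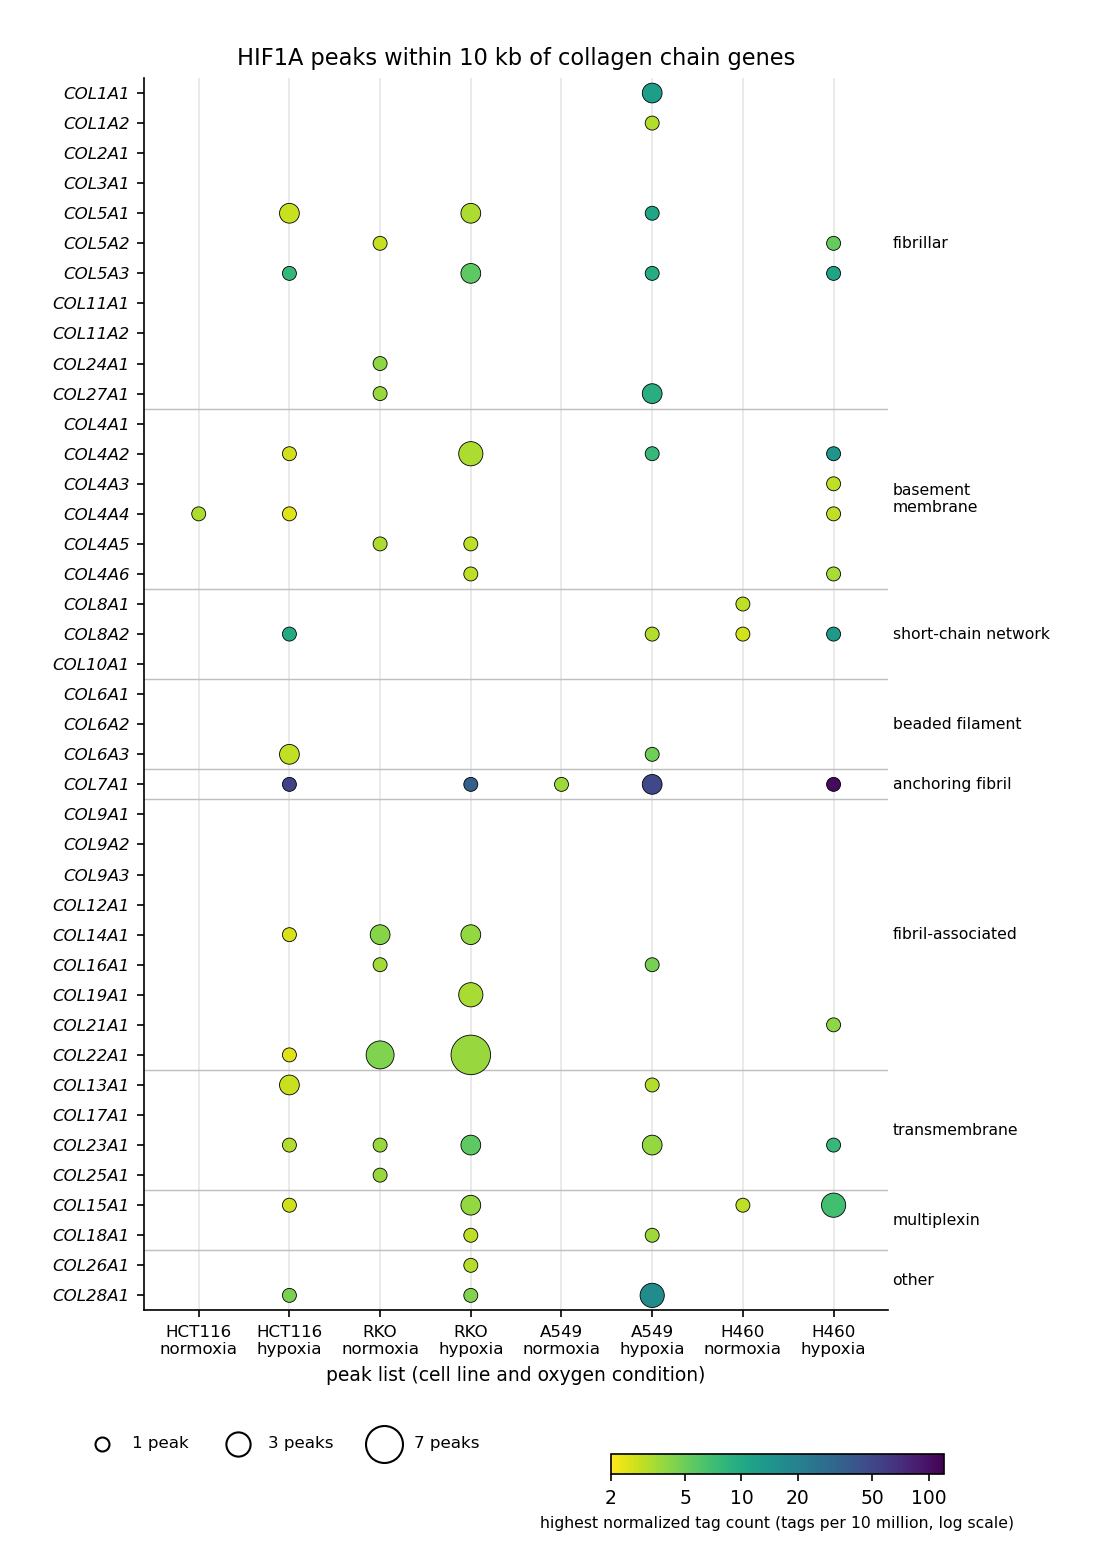
The 41 collagen chain genes by class (rows) against the 8 peak lists (columns); the area of a circle gives the number of peaks in the gene window and its colour the highest normalized tag count in tags per 10 M, on a log scale. Most circles are pale, and the dark circles in the 4 hypoxia columns belong to the COL7A1 window, at 35.3 to 109.

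Peaks in collagen windows were mostly weak. The 77 hypoxia peaks had a median normalized tag count of 3.44, from 2.33 to 109, and 21 of them, in the windows of 11 genes, reached 5. The 18 normoxia peaks ran from 2.63 to 4.44, and none reached 5. The median collagen peak was 4.83 in A549 hypoxia against 3.87 for the whole list, 6.06 against 6.47 in H460, 2.76 against 3.07 in HCT116 and 3.29 against 3.29 in RKO. The level of 5 thus lay under the list median in H460 and above it in A549, HCT116 and RKO. A549 was the line whose median collagen peak stood above the list median, with 11 of its 20 collagen peaks above it.

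Few places in collagen windows were called in more than 1 line. Joined where they overlapped by at least 1 bp, the hypoxia peaks formed 66 regions, of which 61 (92.4%) were called in 1 line, against 87.9% of the 13535 regions in all coding gene windows. Regions called in 2 or more lines lay in the windows of 5 collagen genes, 12.2% of the 41 against a background of 11.8% of all coding genes and 5.36 genes at the standardised share. Regions called in 4 lines lay in the windows of COL5A3 and COL7A1, 4.88% of the 41 against a background of 1.66% and 0.761 genes at the standardised share. A count of 2 genes is too small to be read as more than those 2 genes.

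COL5A3, which encodes the alpha-3 chain of type V collagen, a regulator of fibril diameter, held the region of the 4 lines that lay inside a collagen gene, with the start of that gene as its nearest coding start. The gene lies at chr19:10070237-10121180 on the minus strand, and the region lay in intron 8, 10148 to 10156 bp from the start. Its normalized tag count was 9.66 in A549, 10.9 in H460, 7.85 in HCT116 and 5.53 in RKO, from 45, 54, 64 and 37 tags. The 4 values lay within a narrow range, at the 71.2 to 92.6 percentiles of their lists. No normoxia list held a peak there. Another COL5A3 peak of 3.14, 5157 bp upstream in RKO, was nearer to the start of RDH8, at 2412 bp.

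The region called in 4 lines in the COL7A1 window was by far the strongest, and it lay inside the neighbouring gene PFKFB4. COL7A1, at chr3:48601506-48632762, encodes the chain of the anchoring fibrils that hold epithelium to the dermis, and PFKFB4 encodes a glycolytic regulatory enzyme. The normalized tag count was 49.4 in A549, 109 in H460, 53.2 in HCT116 and 35.3 in RKO, ranks 53, 5, 11 and 13 of the lists. The peaks lay 6782 to 6796 bp past the COL7A1 end, in a PFKFB4 intron, and 260 to 274 bp from a PFKFB4 transcript start. They thus lay 7701 bp or more from any annotated COL7A1 transcript start. At the COL7A1 start itself the lists held a normoxia peak of 3.64 in A549, 316 bp upstream, and no hypoxia peak. Another A549 hypoxia peak of 3.65 lay in the last part of COL7A1, 369 bp from the start of UCN2.

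COL28A1, which encodes a chain found around peripheral nerves, held a region called in 3 lines in intron 25, 111279 to 111302 bp from its start. The tag count was 16.7 in A549, 4.54 in HCT116 and 4.33 in RKO, from 78, 37 and 29 tags. Within their lists these peaks lay at the 91.4, 73.0 and 87.9 percentiles. A549 had 2 further peaks in the gene, of 3.44 and 3.22. H460 had no peak in the COL28A1 window.

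The other 2 shared regions lay past the ends of collagen genes and at the starts of their neighbours. In the window of COL23A1, a transmembrane collagen, the region was 107 to 220 bp from a transcript start of PHYKPL, which encodes a phospholyase of hydroxylysine breakdown. Its count was 7.68 in H460, 3.19 in HCT116 and 5.53 in RKO. In the window of COL8A2, a short-chain collagen of the corneal endothelium, the region lay 17 to 21 bp from the start of ADPRS, an ADP-ribose hydrolase. It was 9.94 in HCT116 and 13.1 in H460, while A549 had a separate peak of 3.22 there, 812 bp from that start.

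**Figure D3:**
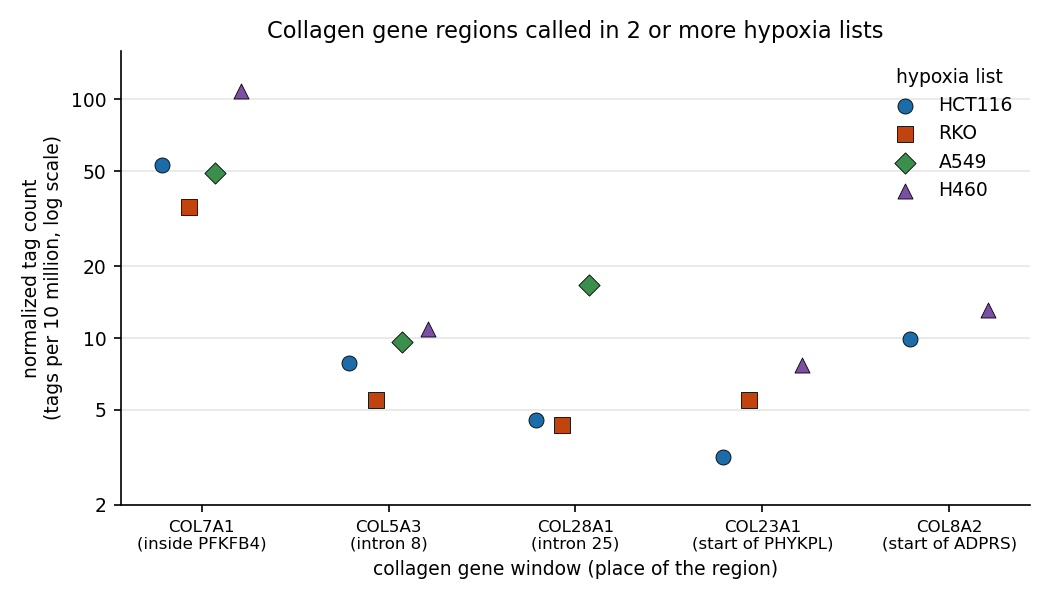
Normalized tag count in tags per 10 M, on a log scale (vertical axis), of the 5 collagen gene regions called in 2 or more hypoxia lists, with a point for each line whose list held the region. The COL7A1 window, at 35.3 to 109, lies above all others, and the COL5A3 points lie between 5.53 and 10.9.

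The 16 collagen peaks in shared regions had a median normalized tag count of 9.80, and the 61 called in a single hypoxia list had a median of 3.29. The core sequence lay within 100 bp of the centre in 15 of the 16 (93.8%) and in 22 of the 61 (36.1%, 25.2 to 48.6). The 16 peaks are only 5 regions, whose peaks share their sequence between lines, and all 5 held it in at least 1 line. By level, it lay in 19 of the 21 hypoxia peaks at 5 or above (90.5%) and in 18 of the 56 below 5 (32.1%). Counted as distinct regions, these were 12 of 13 and 17 of 55. In windows of the same length 2000 bp to either side it lay in 31.0% and 29.5%. Pooled over the lines, the weaker peaks thus held it about as often as the DNA beside them. Level and line are mixed in this split. RKO had 29 of the 77 hypoxia peaks but only 3 of the 21 at 5 or above. Whether the weaker peaks of each line differed from the DNA beside them was not tested. In normoxia 3 of 18 peaks held the core sequence. By line it lay in 60.0% of collagen hypoxia peaks in A549, 58.3% in H460, 56.2% in HCT116 and 31.0% in RKO, against 52.4%, 76.9%, 65.2% and 30.5% of all peaks of those lists.

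Hypoxia peaks lay mainly inside the genes, which also make up most of the window length, and few lay at their starts. Of 79 pairs of a hypoxia peak and a collagen gene, 53 were intronic, 7 exonic, 7 upstream and 12 past the gene end. The median gene length was 150 kb and each flank 10 kb, so these counts cannot be read as a preference for introns. The 12 past the end had a median tag count of 11.2 and 9 of them reached 5, while the intronic ones had a median of 3.44 and 11 of 53 reached 5. Those 9 were the 4 peaks of the COL7A1 window, 2 each of the COL8A2 and COL23A1 windows and 1 of the COL1A1 window, all nearer to the start of another gene. Of the 21 peaks at 5 or above, 12 had their nearest coding gene start at a gene outside the collagen family, as did 32 of the 77 hypoxia peaks.

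**Figure D4:**
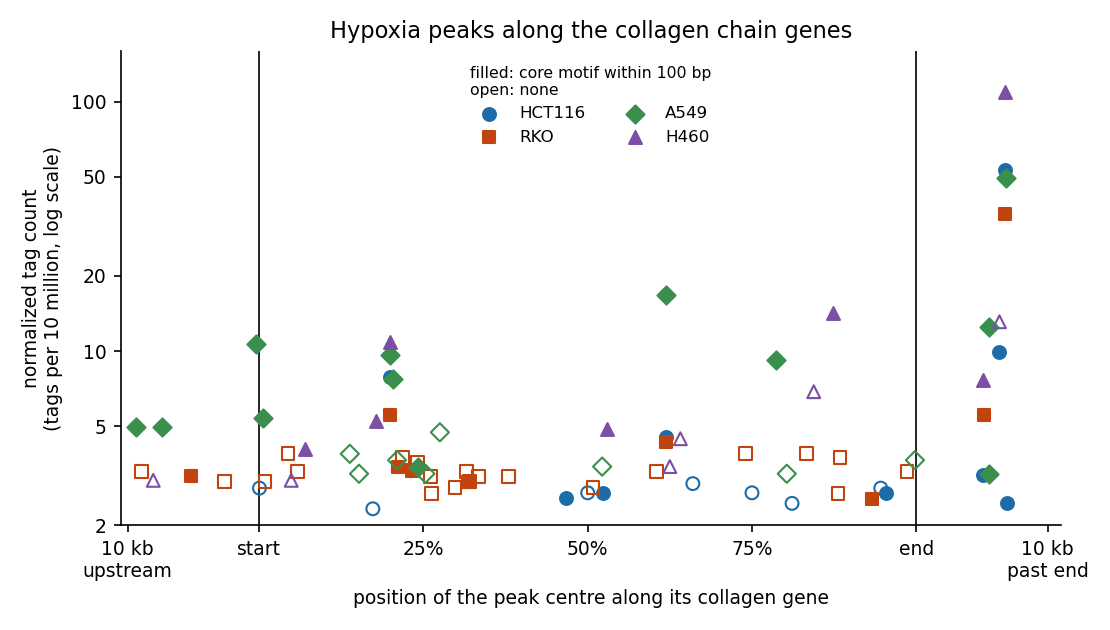
Position of each hypoxia peak along its collagen gene (horizontal axis, in percent of the gene length between start and end and in bases for the 10 kb on each side) against its normalized tag count in tags per 10 M on a log scale; symbols give the line, and filled symbols have the core sequence within 100 bp. The 4 highest points, all filled, lie past the end of COL7A1.

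Within 2500 bp of their start, 2 collagen genes had a hypoxia peak in A549, 1 in HCT116 and 1 in RKO, and none in H460. The collagen share was 4.88% (1.35 to 16.1) in A549 against a background of 7.02% of all coding genes, 2.44% (0.432 to 12.6) in HCT116 against 9.15%, and 2.44% (0.432 to 12.6) in RKO against 8.72%. These intervals hold the background. H460 had 0 of 41, which allows a share of up to 7.32% (3 counts), against a background of 9.16%. COL5A1, the major chain of type V collagen, had the strongest of these, 10.7 in A549 from 50 tags, 255 bp upstream of its start at chr9:137533649-137736689 and holding the core sequence. COL27A1, a fibrillar chain of cartilage, had a peak of 5.37 in A549, in intron 1 and 910 bp from its start. COL13A1, a transmembrane collagen, had 2.82 in HCT116, 79 bp from its start in the 5′ UTR and without the core sequence. COL4A5, a basement membrane chain, had 2.99 in RKO, in intron 1 and 2316 bp from its start, at a peak that also lay in the COL4A6 window. With any annotated transcript start in place of the outermost, a choice made after seeing the data, the numbers were 5 genes in A549, 12.2% against 9.76% of all coding genes, 0 in H460 against 11.3%, and 3 each in HCT116 and RKO, 7.32% against 11.6% and 12.3%. A549 thus turned from below to above the coding share.

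Among the 11 fibrillar genes, 6 had a hypoxia peak, with 6.91 at the standardised share. COL1A1, the main chain of type I collagen, at chr17:48261462-48278993, had 2 peaks in A549 and none in the other lists. The higher, at 12.5 from 58 tags, lay 5510 bp past its end, 3418 bp from a transcript start of SGCA, and the other, at 4.94, lay 9406 bp upstream. Its partner COL1A2 had 3.22 in A549, in intron 6. COL5A1 had 5 peaks in 3 lines at 5 different places, of which the 4 in HCT116 and RKO were 2.33 to 3.29. COL27A1 had another A549 peak of 9.23 in intron 37, and COL5A2 had 5.26 in H460, in an intron. COL24A1 had a normoxia peak of 3.99 in RKO and none in hypoxia, and COL2A1, COL3A1, COL11A1 and COL11A2 had none.

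The 6 type IV genes are arranged as 3 head-to-head pairs, and 5 of the 6 had a hypoxia peak, with 4.46 at the standardised share. COL4A2 had 6 peaks in the 4 lines at 6 places that did not overlap. The highest were 14.2 in H460 and 7.73 in A549, while RKO had 3 of 2.69 to 3.29 and HCT116 had 2.70. Its partner COL4A1, whose start lies 1345 bp away, had none. COL4A3 and COL4A4 shared a peak of 3.03 in H460, 7888 bp from the COL4A4 start. COL4A6 had 3.44 in H460, and 2.99 in RKO at the peak shared with COL4A5. No region of a type IV gene was called in more than 1 line.

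Of the remaining classes, the fibril-associated genes had a hypoxia peak in 5 of 9, with 6.17 at the standardised share. COL22A1 had 9 hypoxia peaks, the most of any collagen gene, 8 of them in RKO at 2.84 to 3.74. COL14A1 had 3, COL19A1 had 3 in RKO of 2.69 to 3.44, COL16A1 had 4.72 in A549 and COL21A1 had 4.04 in H460. COL9A1, COL9A2, COL9A3 and COL12A1 had none. Both multiplexins, whose C-terminal fragments include endostatin, had hypoxia peaks, with 1.33 of 2 at the standardised share. COL15A1 had 6 at 6 places in HCT116, RKO and H460, up to 6.87 in H460, and COL18A1 had 2, of 3.65 in A549 and 2.99 in RKO. COL6A3 was the only one of the 3 beaded-filament genes with peaks, where the standardised number was 1.67, and had 2.94 and 2.70 in HCT116 and 4.94 in A549, and COL26A1 had 3.14 in RKO. Of the transmembrane genes, COL13A1 also had 3.22 in A549 and 2.70 in HCT116, COL25A1 had 3.77 in RKO normoxia alone, and COL17A1 had none. COL8A1 had 3.0 in H460 normoxia alone.

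The RKO peaks of COL14A1 and COL22A1 stood apart. These 2 genes, both over 300 kb, held 10 of the 29 RKO hypoxia peaks and 6 of the 13 RKO normoxia peaks in collagen windows, and 1 of these 16 held the core sequence. Their tag counts were 2.84 to 4.44 and their folds over the surrounding 10 kb were 3.07 to 6.68. The RKO lists were dense on chromosome 8 as a whole, with 7.97 peaks per Mb against 2.77 elsewhere in hypoxia. In normoxia it was 3.63 against 0.539, and chromosome 8 held 25.4% of the list. HCT116 was denser there too, at 1.87 against 1.29 in hypoxia and 0.260 against 0.0862 in normoxia. In hypoxia A549 had 2.10 against 1.76 and H460 1.07 against 1.29. The part of the RKO density in the collagen counts was not tested. Without these 2 genes RKO had 19 hypoxia and 7 normoxia collagen peaks.

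Peaks called in both conditions of a line were rare in collagen windows, at 1 pair in HCT116 and 1 in H460. At the COL8A2 pair beside ADPRS, the tag count in H460 was 2.63 in normoxia and 13.1 in hypoxia, from 14 and 65 tags. The log2 ratio was 2.32, with an adjusted p of 1.03e-09 in an exact conditional binomial test with Benjamini-Hochberg adjustment over the 45 pairs of the line. At the COL4A4 pair, 6852 bp past the gene end, HCT116 had 3.33 in normoxia and 2.45 in hypoxia, from 23 and 20 tags. The log2 ratio was -0.44, with an adjusted p of 0.444 in the same exact test over 37 pairs. The background of pairs past an adjusted p of 0.05 was 59.5% in HCT116 and 82.2% in H460. This test compares pairs of merged libraries and not the conditions. COL14A1, COL22A1, COL23A1 and COL4A5 in RKO, COL7A1 in A549 and COL15A1 in H460 had peaks in both conditions at different places.

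Genes that act on collagen chains were described in the same way. Of 15 genes of modifying enzymes and the collagen chaperone, 11 had a peak in any hypoxia list, with 8.24 at the standardised share, and 6 had a region called in 2 or more lines, with 1.88 at the standardised share. P4HA1, a catalytic subunit of prolyl 4-hydroxylase, had a peak of 65.5 in A549, 56.4 in H460, 37.3 in HCT116 and 30.0 in RKO. P4HA2, the other main catalytic subunit, had 30.7, 27.9, 20.5 and 10.6, and PLOD1, a lysyl hydroxylase, had 25.6, 34.2, 27.8 and 18.1 in the same order. P4HB, the beta subunit of the same enzyme, had 27.7, 38.6, 20.0 and 8.82. These values of 4 genes exceeded the COL5A3 value of the same line. The other 2 genes with a shared region were lower than COL5A3 where HCT116 or RKO had a peak, with PLOD3, another lysyl hydroxylase, at 4.66 in HCT116 and 15.5 in A549, and PPIB, a prolyl isomerase, at 2.94 in HCT116 and 3.29 in RKO, against 7.85, 9.66 and 5.53 for COL5A3 in HCT116, A549 and RKO. Of 11 propeptidase and cross-linking genes 7 had a hypoxia peak, with 6.34 at the standardised share, and LOXL2 alone had a shared region, with 1.42 at the standardised share. Of 12 laminin chain genes 9 had a hypoxia peak, with 7.74 at the standardised share, and 2 a shared region, with 1.6. Of 6 collagen receptor genes 4 had a hypoxia peak, with 3.72 at the standardised share, and none a shared region, with 0.75. Peaks of these genes were taken by the 10 kb windows, and their nearest gene starts are not given here. The highest peak in the COL7A1 window lay in a PFKFB4 intron. By window alone, that peak was above P4HA1 in H460, HCT116 and RKO, at 109, 53.2 and 35.3, and below it in A549, at 49.4. The same peak was also above P4HA2, PLOD1 and P4HB in each line, but it did not lie in COL7A1 itself. The gene lists, like the collagen genes, were chosen with results of these data known.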

How the data were processed

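ChIP-seq was made in 20 samples, 16 ChIP and 4 input libraries. Per the labels, the submitters' processing notes name Bowtie2 2.2.9, SAMtools 1.3.1, Picard 1.129 and HOMER 4.3 with builds GRCh37 and hg19. The authors kept reads with a mapping quality above 10, marked duplicates, merged the 2 replicates of a group and called peaks against the input of the line. The deposited normalized tag count is a signal, in tags per 10 M. The deposited fold ratio over input and fold ratio over the local region are the authors' own, and the deposited input column holds 0.5 where no input tag was found. Required local fold was 3, with a false discovery rate of 0.001. The group of a list was taken from the sample titles and file headers. The descriptions of the RKO and A549 inputs name each other's line, while titles and cell line labels match the file headers, which were followed.

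Whole tags were recovered by undoing the scaling to 10000000 tags, and in each of the 8 lists they added up to the total printed in its header. Peaks were joined to GENCODE release 44 genes lifted to GRCh37 by their centres. The core sequence was searched within 200 bp around the centre. Computation used Python 3.11.15, scipy 1.17.1, pandas 2.3.3 and pysam 0.24.0. The calculations were checked on simulated data. Length-standardised shares are given with 20 and, added after seeing the data, 100 bins. Members and lists were chosen with earlier results of these data known. Genes were named by rule: those with a region in 2 or more hypoxia lists, a peak in both conditions, a hypoxia peak within 2500 bp of the start, 1 of the 3 highest peaks of a list, the most peaks or no peak, and COL1A1 and COL13A1. The other bound genes were added so that each is accounted for. Alternatives are given in the closing section.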

Additional observations from a re-analysis of the deposited data

Results flagged for a closer look

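Over the 4 lines, 16 collagen gene measures were compared within a condition, and 3 had a line whose gap to its nearest neighbour was large against the whole range. Chance marks about 5% of such comparisons, but the 16 measures are not all independent. RKO normoxia held 13 collagen gene peaks of 2092 in the list. A549, H460 and HCT116 held 1 of 526, 3 of 1127 and 1 of 287, with a higher required fold over input in each, so these counts were not made alike. The density of 1.83 peaks per Mb of collagen window in RKO normoxia is that count over a window length equal for all lists. Its mark therefore follows from that of the count and is no separate result. Without COL14A1 and COL22A1 the density was 1.09. RKO hypoxia had the core sequence in 31.0% of its collagen gene peaks, where the other lines had 56.2% to 60.0%. The whole RKO hypoxia list had 30.5%, against 52.4% to 76.9% in the other hypoxia lists.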

How the results depend on the processing

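No paired analysis was possible because the replicates of each group were merged before peaks were called, so that no fit could use the replicate numbers. The lists were paired by line only, in the test of the mean shares. Of 151 values under alternatives, 97 stayed within the interval, the spread or the 1.5 times range of the value reported and 54 moved. The cause of a move was not tested, beyond fewer or more peaks being counted by construction.

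With all deposited peaks the length-standardised share lay inside the collagen interval in the 4 hypoxia lists. This ended in HCT116 and RKO at an input fold of 14 or more, where RKO hypoxia also turned from below to above that share. At a local fold of at least 6 and a normalized tag count of at least 5, RKO hypoxia was only slightly above it, with 7 and 3 collagen genes. At a normalized tag count of at least 5 the collagen share was 17.1% in A549 hypoxia and 7.32% in both HCT116 and RKO hypoxia, and 0% in the 4 normoxia lists, while the standardised shares were 11.5% in A549, 6.60% in HCT116 and 5.54% in RKO hypoxia, and 0.0848% in HCT116, 0.756% in RKO and 0.104% in H460 normoxia. At a local fold of at least 6 the collagen share was 9.76% in HCT116 and 17.1% in RKO hypoxia, and 0% in A549 and HCT116 normoxia, with standardised shares of 9.37% and 16.6% in HCT116 and RKO hypoxia and 0.126% in HCT116 normoxia. At a fold over input of at least 14 the standardised share was 10.9% in HCT116 and 18.8% in RKO hypoxia, where the collagen shares were 22.0% and 31.7%, and the collagen share in HCT116 normoxia was 0%.

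The hypoxia shares moved furthest with the window. Within 2500 bp of the gene start the share was 4.88% in A549, 0% in H460 and 2.44% in HCT116 and RKO hypoxia, and 0% in HCT116, RKO and H460 normoxia. From any transcript start it was 12.2% in A549, 0% in H460 and 7.32% in HCT116 and RKO hypoxia, and 0%, 0% and 2.44% in HCT116, RKO and H460 normoxia. Counting only peaks whose nearest coding start was that of the gene gave 12.2% in H460 and 17.1% in HCT116 hypoxia against 11.6% and 12.3% of all coding genes, 2.44% in H460 and 0% in HCT116 normoxia, and 2 shared regions in place of 5. Flanks of 50 kb gave 53.7% in HCT116 and 51.2% in RKO hypoxia against 34.9% and 47.5% of all coding genes, and gene bodies alone gave 0% in HCT116 and A549 normoxia against 0.794% and 1.36%.

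The share of collagen peaks with the core sequence was 31.2% in HCT116 within a 100 bp window. At a local fold of at least 6 it was 100% in HCT116 and 63.6% in RKO. The control sequences ACGAG or GCGAG occurred in 30.0% in A549, 16.7% in H460 and 25.0% in HCT116. In RKO they occurred in 31.0%, the same share as the core sequence. Without COL14A1 and COL22A1, RKO had 19 hypoxia and 7 normoxia collagen peaks. At COL8A2 in H460 the log2 ratio was 2.02 per bp of peak width (adjusted p = 2.18e-07, the exact test), and at an overlap of 75 bp no pair remained there to test. At COL4A4 the ratio per bp was -0.08. Leaving out a line in turn gave mean shares of 4.07% to 10.6% in normoxia, where the lowest was without RKO, and of 30.9% to 33.3% in hypoxia, and 4 or 5 shared regions. Weak peaks rest on few tags, and binding under a list's thresholds cannot be seen.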

Other observations

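The 300 bases from 250 before to 50 after the gene start held ACGTG or GCGTG on either strand in 16 of the 41 collagen chain genes (39.0%) and in 53.4% of all 20162 coding genes. A hypoxia peak lay within 2500 bp of the start in 2 of these 16 collagen genes, COL5A1 and COL13A1, and in 2 of the 25 without it, COL4A5 and COL27A1. For all coding genes the shares were 28.6% with the core sequence and 14.7% without. COL1A1, COL1A2, COL2A1, COL4A2 and COL11A1 were among those with the core sequence and no such peak.

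The starts of COL4A3 and COL4A4 lie 171 bp apart and those of COL4A5 and COL4A6 lie 341 bp apart. Within 2500 bp of the 3 head-to-head pairs of type IV starts the 8 lists held 1 peak, the RKO hypoxia peak of COL4A5.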
